A study of Neogale vison with 6 samples.

Results

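The oxysterol-binding protein family was followed at the RNA level in Mv1Lu cells, an epithelial line from mink lung, with and without cholesterol depletion (CD). The genes were taken by symbol from the deposited count table. The symbols were OSBP, OSBPL1A, OSBPL2, OSBPL3, OSBPL5, OSBPL6, OSBPL8, OSBPL9, OSBPL10 and OSBPL11, and all 10 were present among the 24526 genes of the table. Control cells were untreated (3 libraries), and CD cells (3 libraries) were kept for 16 h in 50 μM lovastatin, a statin that blocks HMG-CoA reductase, together with 50 μM mevalonate and 10% lipoprotein-deficient serum (LPDS). The comparison therefore covers the statin, the mevalonate and the change of serum together. All libraries come from 1 cell line, and no source states whether the replicates were separate cultures, so the tests measure the spread between these libraries.

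Oxysterol-binding proteins, also called ORPs, carry lipids between membranes that lie close together. Each folds around 1 lipid molecule, and many of them exchange a sterol or phosphatidylserine from the endoplasmic reticulum (ER) for a phosphoinositide of the target membrane. The phosphoinositide is then degraded in the ER, which keeps the exchange running in one direction. Most members reach the ER through VAP proteins, whereas ORP5 and ORP8 are anchored in it by a transmembrane segment. Since the counts are per gene, long and short forms of a member, such as the long and short ORP1, were not told apart.

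The libraries held between 13473820 and 18633760 reads counted on genes. Unmapped reads made up 18.4% and 13.6% of control replicates 1 and 2 and 3.54% to 9.37% of the other libraries. CD replicate 3 had the largest share of reads mapped outside annotated genes (25.4%, against 19.5% to 23.4% elsewhere), and the CD libraries varied more than the control libraries, with a biological coefficient of variation of 0.213 against 0.0842. Among sterol-responsive genes taken as a check of the treatment, HMGCS1, an enzyme of cholesterol synthesis, and INSIG1, an ER regulator of that pathway, were higher in CD, by 3.43 and 1.67 on the log2 scale (FDR 4.17e-07 and 8.48e-06, edgeR). Among the epithelial markers, KRT19 was abundant (883 to 1011 CPM, counts scaled to library size and the TMM factor, in control and 379 to 533 CPM in CD), whereas CDH1 and EPCAM, 2 defining markers of epithelium, had only 8 and 7 reads over the control libraries and 18 and 2 over the CD libraries. The summed level of the 4 epithelial markers found was 884 to 1012 CPM in control and 385 to 541 CPM in CD. CLDN4 rose from 0.603 to 7.03 CPM. Of 5 markers of blood, endothelial and fibroblast cells, PTPRC, PECAM1 and CDH5 had no reads in control and 1, 11 and 1 reads in CD, while COL1A1 and COL1A2 brought the sum to 217 to 264 CPM in control and 153 to 194 CPM in CD. Their part in the results below was not tested.

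All 10 family members had enough reads to be tested. In CD, OSBPL5, OSBPL8, OSBPL9 and OSBPL2 were higher than in control, OSBPL10 was lower, and OSBP, OSBPL1A, OSBPL3, OSBPL6 and OSBPL11 did not pass the threshold. The threshold was a false discovery rate (FDR, Benjamini-Hochberg over all 12148 genes tested) under 0.05 by edgeR's quasi-likelihood test. Over all genes tested, 24.8% were higher and 22.9% lower, together 47.7%, so that the 4 higher, 1 lower and 5 uncalled members are close to what the whole table shows. The same 5 members were those whose CD and control libraries did not overlap, and 58.0% of all genes tested had no overlap. The log2 fold changes ran from -0.52 (OSBPL10) to 1.19 (OSBPL5) with a median of 0.02, beside a median of 0.06 for all genes tested. Members therefore changed in both directions. In bulk RNA, fewer cells that express a gene and less of its RNA per cell cannot be told apart.

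**Figure D1:**
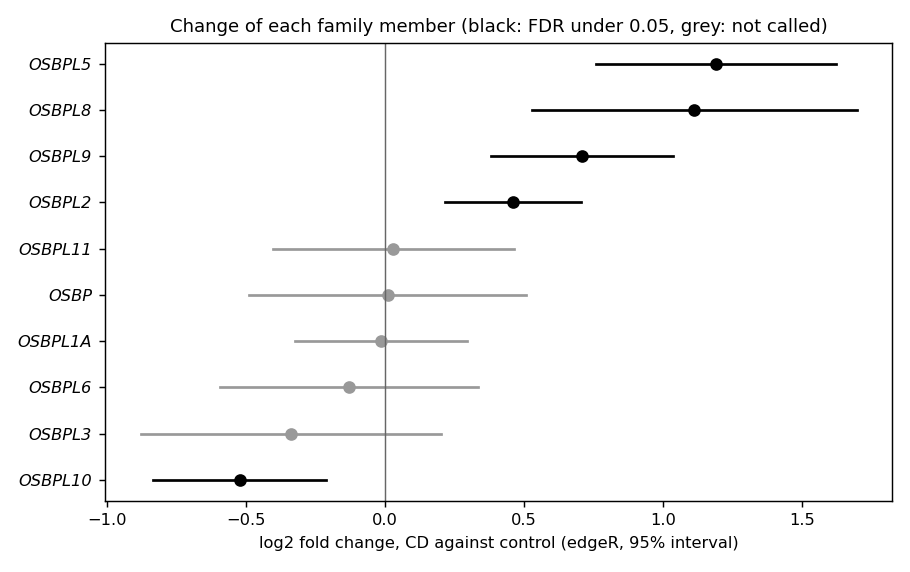
Log2 fold change of each family member in CD against control cells (x axis), with the 95% interval of the edgeR fit. OSBPL5, OSBPL8, OSBPL9 and OSBPL2 (black) lie right of 0, OSBPL10 (black) lies left of it, and the intervals of the 5 grey members include 0.

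The 2 ER-anchored members rose most. ORP5 and ORP8 bridge the ER and the plasma membrane, where they deliver phosphatidylserine in exchange for phosphatidylinositol 4-phosphate (PI4P). OSBPL5 (ENSNVIG00000008546), which encodes ORP5, was at 4.01, 4.05 and 5.12 CPM in control replicates 1 to 3 and at 10.7, 10.7 and 8.86 CPM in CD replicates 1 to 3. Even the lowest CD library lay well above the highest control library. The change was 2.28-fold, or 1.19 ± 0.19 (SE) in log2 terms (FDR 6.89e-04, edgeR). The gene rests on few reads, 205 over the control and 471 over the CD libraries. Its coefficient of variation in control was 14.4%, where counting alone would give 12.1%.

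OSBPL8 (ENSNVIG00000002847), which encodes ORP8, was at 9.89, 9.61 and 8.37 CPM in the control and at 29.4, 14.9 and 15.8 CPM in the CD replicates. CD replicate 1 held nearly the sum of the other CD libraries, which were themselves above every control library. The log2 change came to 1.11 ± 0.26 (SE; 2.16-fold, FDR 0.00592, edgeR). Without CD replicate 1 it was 0.74 (FDR 0.00601, edgeR), so the rise remained called while its size rested in part on this library. The coefficient of variation of OSBPL8 was 8.67% in control and 40.4% in CD, the largest of any member.

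OSBPL2 and OSBPL1A belong to the same branch of the family. OSBPL2 (ENSNVIG00000021309) encodes ORP2, a short member without a membrane-binding PH domain that carries cholesterol to the plasma membrane in exchange for a phosphoinositide. It was at 103, 96.4 and 110 CPM in control and at 143, 150 and 133 CPM in CD, with no overlap between the groups. The log2 change came to 0.46 ± 0.11 (SE; 1.37-fold, FDR 0.00648, edgeR), the smallest among the higher members and the one with the smallest standard error. OSBPL1A (ENSNVIG00000018623) encodes ORP1, whose long form sits on late endosomes with RAB7 and responds to their cholesterol content. Its values were 30.3, 36.9 and 32.3 CPM in control and 36.0, 30.0 and 32.5 CPM in CD, so that the groups lay on top of each other. The log2 fold change was -0.02, with a 95% interval from -0.33 to 0.29 (FDR 0.94, edgeR).

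**Figure D2:**
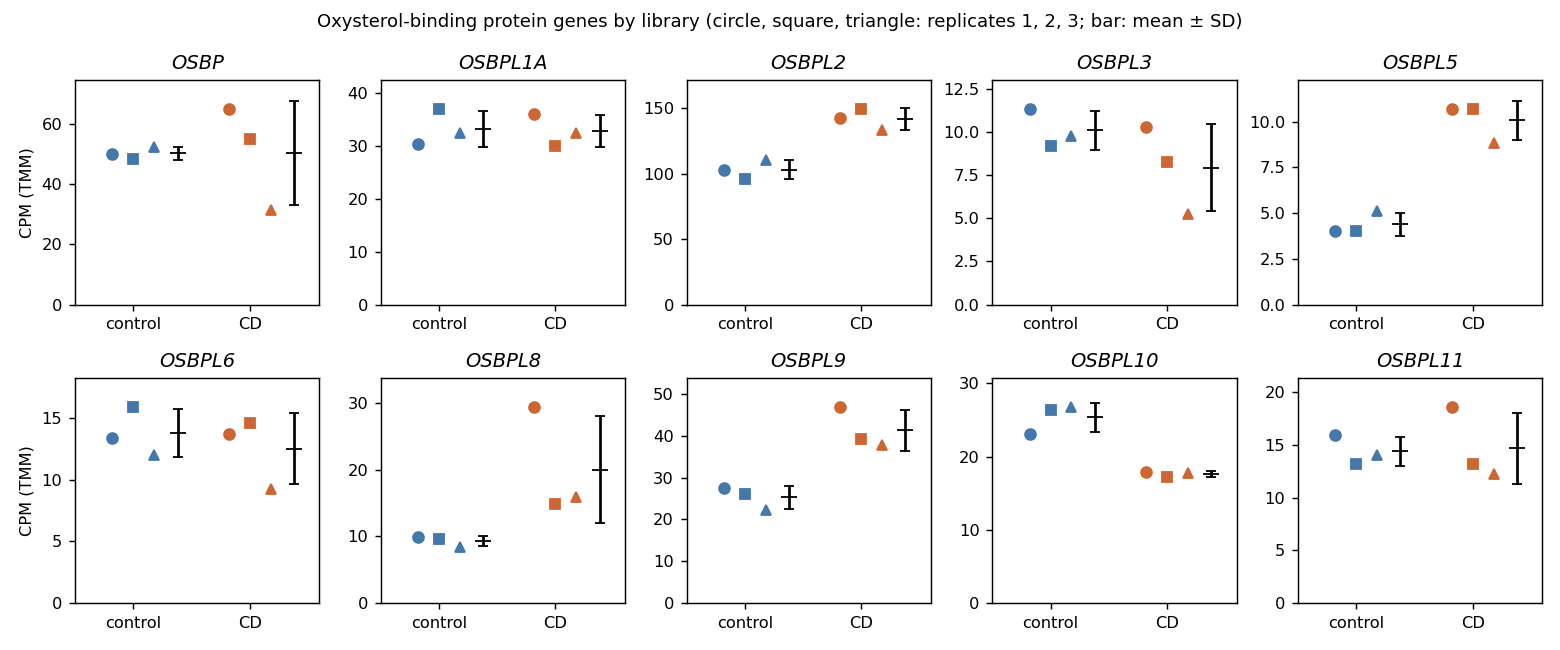
Expression of the 10 family members in CPM after TMM normalization (y axis, from 0) in control (blue) and CD (orange) libraries. Each symbol is 1 library and the bar gives the mean ± SD of 3 libraries. Control and CD are separated for OSBPL2, OSBPL5, OSBPL8, OSBPL9 and OSBPL10.

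OSBPL9, OSBPL10 and OSBPL11 encode ORP9, ORP10 and ORP11. ORP9 pairs with ORP10 or ORP11 and anchors the pair to the ER, and the pairs act at the Golgi and endosomes. Of the 3 transcripts, OSBPL9 was called higher, OSBPL10 was called lower and OSBPL11 was not called. OSBPL9 (ENSNVIG00000005748) was at 27.5, 26.2 and 22.1 CPM in control and at 46.8, 39.3 and 37.7 CPM in CD. All CD libraries lay above all control libraries, and the log2 change came to 0.71 ± 0.15 (SE; 1.63-fold, FDR 0.00294, edgeR). OSBPL10 (ENSNVIG00000010866) was at 23.1, 26.3 and 26.7 CPM in control and fell to 17.9, 17.2 and 17.8 CPM in CD. It was the only member called lower, with a log2 change of -0.52 ± 0.14 (SE; FDR 0.0109, edgeR). Its CD libraries were the most alike of any member, with a coefficient of variation of 2.30%. Counting alone would give 6.05%, so no precision can be read from this closeness. The call was lost without control replicate 3 (log2 fold change -0.49, FDR 0.0570, edgeR). OSBPL11 (ENSNVIG00000012608) was at 15.9, 13.2 and 14.0 CPM in control and 18.6, 13.2 and 12.2 CPM in CD. The CD libraries of OSBPL11 surrounded the control libraries, and the log2 fold change of 0.03 had a 95% interval from -0.41 to 0.46 (FDR 0.92, edgeR).

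OSBP (ENSNVIG00000000226), the founding member, moves cholesterol from the ER to the trans-Golgi against PI4P. Its control libraries were tight, at 49.9, 48.4 and 52.5 CPM, whereas the CD libraries spread from 65.0 and 55.1 CPM in replicates 1 and 2 to 31.4 CPM in replicate 3. CD replicates 1 and 2 lay above every control library and CD replicate 3 below every one. The fitted log2 fold change was 0.01, with a 95% interval from -0.49 to 0.51 (FDR 0.98, edgeR). Without CD replicate 3 it was 0.22 (FDR 0.10, edgeR) and without CD replicate 1 it was -0.20 (FDR 0.43, edgeR), so no direction could be given for OSBP.

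OSBPL3 and OSBPL6 form another branch, with OSBPL7. ORP3, the product of OSBPL3, binds VAP proteins and the GTPase R-Ras and influences cell adhesion. OSBPL3 (ENSNVIG00000012516) was at 11.3, 9.18 and 9.75 CPM in control and at 10.3, 8.28 and 5.26 CPM in CD, where only replicates 2 and 3 lay below all control libraries. Its log2 fold change was -0.34, with a 95% interval from -0.88 to 0.20 (FDR 0.27, edgeR). OSBPL6 (ENSNVIG00000006388) was at 13.4, 15.9 and 12.1 CPM in control and at 13.8, 14.6 and 9.29 CPM in CD, overlapping apart from CD replicate 3. The log2 fold change was -0.13 (95% interval -0.60 to 0.33, FDR 0.63, edgeR). For each of the 5 uncalled members the interval excluded a change of 2-fold in either direction.

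OSBPL7 and OSBP2, family genes outside the 10, were read from the same table. OSBPL7 (ENSNVIG00000005460) was at 11.0, 9.18 and 11.0 CPM in control and at 10.7, 9.57 and 6.77 CPM in CD, which gave a log2 fold change of -0.20 (95% interval -0.66 to 0.26, FDR 0.44, edgeR). OSBP2 (ENSNVIG00000001726) had 0 reads in the control libraries, which allows up to 3 reads or 0.0653 CPM over the group for counting error alone, and 2 reads in the CD libraries. It could not be tested.

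The spread among CD libraries ran in a common order in much of the family. CD replicate 1 gave the highest CD value for 8 of the 10 members, and CD replicate 3 the lowest for 7 of 10. Over all genes tested these shares were 36.8% and 41.0%. The coefficient of variation was larger in CD than in control for 6 of 10 members and for 76.5% of all genes tested. OSBP reached 34.2% in CD against 4.11% in control. OSBPL3 reached 31.8% against 11.0%, while OSBPL10, OSBPL5, OSBPL2 and OSBPL1A had a lower value in CD. With each library left out in turn, OSBPL5 stayed between 1.12 and 1.32 on the log2 scale, OSBPL9 between 0.62 and 0.77, and OSBPL2 between 0.39 and 0.51. These genes and OSBPL8 passed the threshold under all 14 alternatives run for single genes, and OSBPL10 in 13 of them.

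**Figure D3:**
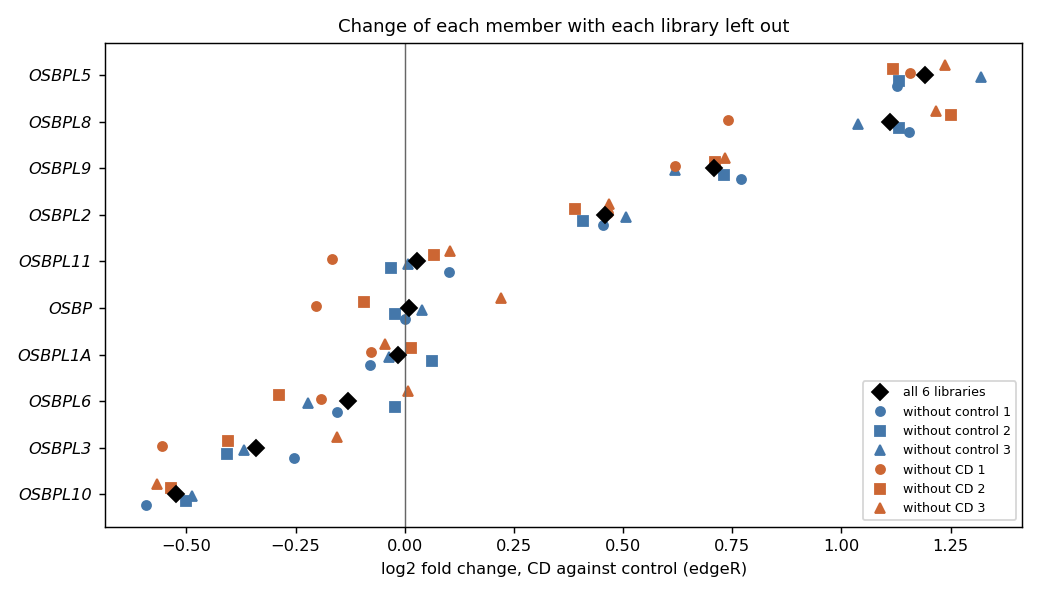
Log2 fold change of each member (x axis, edgeR) with all 6 libraries (black diamond) and with 1 library left out (blue for control, orange for CD). OSBPL8 dropped to 0.74 without CD replicate 1. OSBP, OSBPL1A, OSBPL6 and OSBPL11 crossed 0, while OSBPL5, OSBPL8, OSBPL9 and OSBPL2 stayed right of it.

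The members were next considered by their share of all reads on the 10 genes, which does not depend on how libraries are scaled. Summed over the family, expression was 288, 286 and 293 CPM in control and 391, 353 and 304 CPM in CD. Unlike the shares, this sum depends on the scaling. Each CD library lay above the control range, but CD replicate 3 only by a small margin and after a TMM factor of 0.963. OSBPL5 made up 1.52% ± 0.199 of the family reads in control and 2.89% ± 0.148 in CD (SD, n = 3 each). OSBPL9 went from 8.74% ± 1.05 to 11.8% ± 0.647, and OSBPL10 from 8.77% ± 0.667 to 5.10% ± 0.663. The share of OSBPL3 was 3.49% ± 0.385 in control and 2.23% ± 0.458 in CD, and that of OSBP 17.4% ± 0.492 and 14.2% ± 3.38. Neither level was called, and a share also falls when the family sum rises, here from 289 ± 3.70 to 349 ± 43.7 CPM (SD, n = 3 each), while the mean level of OSBP was 50.2 CPM in control and 50.5 CPM in CD. These shares weigh a gene by its length as well as its abundance and are compared only between conditions.

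Ratios between related members were formed within each library, as log2 of the counts with a pseudocount of 0.5. Of 6 pairs chosen by subfamily or known partnership, 3 had no overlap between control and CD libraries, each with an exact permutation p of 0.1 (two-sided, the smallest that 3 against 3 libraries allow; 0.2 after Benjamini-Hochberg adjustment over the 6 pairs). No pair could therefore reach a threshold of 0.05, and 3 of 6 is no more than the 58.0% of single genes tested that did not overlap. The ratio of OSBPL9 to OSBPL10, the ORP9 and ORP10 partners, moved most. It was 0.25, -0.01 and -0.27 in control and 1.38, 1.19 and 1.08 in CD, a difference of 1.23 on the log2 scale. The ratio of OSBPL9 to OSBPL11 was 0.79, 0.98 and 0.66 in control and 1.33, 1.57 and 1.62 in CD, a difference of 0.70.

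The ratio of OSBPL1A to OSBPL2 was -1.77, -1.38 and -1.77 in control and -1.99, -2.32 and -2.04 in CD. It differed by -0.47. For the ER-anchored pair the ratio of OSBPL5 to OSBPL8 was -1.29, -1.24 and -0.71 in control and -1.46, -0.48 and -0.84 in CD. The control values lay inside the CD range and the means differed by 0.16 (exact permutation p = 0.7, two-sided), less than the SD of 0.33 in control and 0.49 in CD. The ratios of OSBPL3 to OSBPL6 and of OSBPL10 to OSBPL11 differed by -0.24 and -0.53 and overlapped between groups, the latter only through control replicate 1 and CD replicate 3 (exact permutation p = 0.2 each, two-sided).

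**Figure D4:**
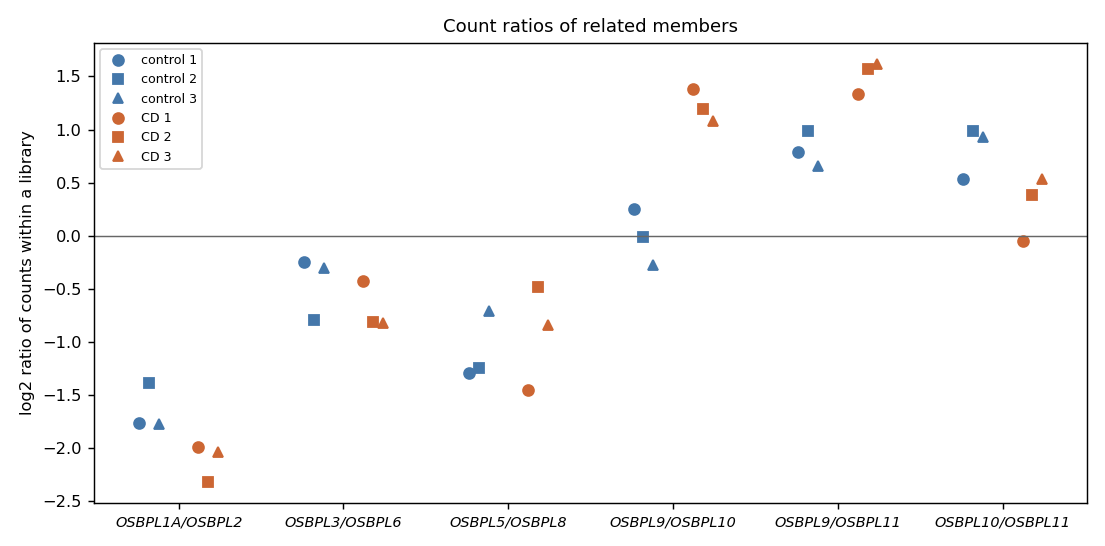
Log2 ratio of the counts of 2 related members within a library (y axis) for the 6 pairs, with control libraries in blue and CD libraries in orange. OSBPL9/OSBPL10 is between -0.27 and 0.25 in control and between 1.08 and 1.38 in CD, while OSBPL5/OSBPL8 overlaps.

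The genes around the family were read from lists written from general knowledge, and the lists are described by counts and medians. RRAS, RILP, RAB7A, TTC7A, TTC7B, EFR3A, FAM126A, FAM126B and PISD were named after their values were seen. Of 8 genes for VAP proteins, their relatives and other partners of ORPs, 4 were higher and none was lower by edgeR (median log2 fold change 0.51). Over all genes tested, 24.8% were higher and 22.9% lower. Every gene of this list had a positive log2 fold change, so a looser threshold could not have given a lower gene. The lower count was also 0 with DESeq2 and limma-voom. VAPA is the main ER receptor of ORPs. It had 57.1 ± 4.31 CPM (SD, n = 3) in control and 77.1 ± 8.15 CPM (SD, n = 3) in CD (log2 change 0.43 ± 0.13 SE, FDR 0.0166, edgeR). This call was lost without control replicate 1 or 3 (FDR 0.0829 and 0.0803, edgeR). Its paralog VAPB had a log2 fold change of 0.17 (95% interval -0.09 to 0.42, FDR 0.25, edgeR). RRAS, the partner of ORP3, rose 2.01-fold (FDR 4.68e-04, edgeR), and MOSPD1, an ER protein with a VAP-like domain, rose 2.21-fold from 1.88 to 4.16 CPM (FDR 0.00128, edgeR). RILP, which joins ORP1 on late endosomes, rose 1.61-fold (FDR 0.0137, edgeR), a call lost without control replicate 2 or CD replicate 2 (FDR 0.0691 and 0.0541, edgeR). RAB7A had a log2 fold change of 0.35 (FDR 0.0591, edgeR) and was called without CD replicate 3 (0.45, FDR 2.63e-04, edgeR) and with upper quartile scaling (0.38, FDR 0.0418, edgeR). The list held 3 to 6 higher genes with each library left out.

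Among 12 tested genes that make or remove PI4P and its product PI(4,5)P2, 4 were higher and 1 was lower (median 0.37), together close to the 47.7% called over all genes tested. SACM1L encodes Sac1, the ER phosphatase that degrades the PI4P brought back by ORPs. It was at 9.89, 10.6 and 13.4 CPM in control and at 25.4, 19.0 and 17.1 CPM in CD, a log2 change of 0.86 ± 0.20 (SE; FDR 0.00561, edgeR). PI4K2B, a PI4P-producing kinase, rose 2.35-fold (FDR 3.22e-04, edgeR). PI4KA, the kinase that makes PI4P at the plasma membrane, had a log2 fold change of -0.07 (95% interval -0.48 to 0.34, FDR 0.78, edgeR). Of the proteins that bring PI4KA to that membrane, the scaffold TTC7A rose 1.89-fold (FDR 0.00492, edgeR), and the anchor EFR3B fell (log2 fold change -1.09, FDR 0.0107, edgeR) on only 165 and 79 reads. The scaffold TTC7B rose 1.35-fold (FDR 0.0347, edgeR), but 7 of 14 alternatives did not call it: total counts scaling, the replicate block and omission of any library except CD replicate 3 (FDR up to 0.134, edgeR). The other anchor, EFR3A, had a log2 fold change of 0.31 (95% interval -0.29 to 0.91, FDR 0.37, edgeR). It was 0.49 (FDR 0.0208, edgeR) without CD replicate 3 and -0.06 without CD replicate 1. FAM126A and FAM126B, further subunits of that complex, had log2 fold changes of 0.70 and 0.20 (FDR 0.14 and 0.65, edgeR). Without CD replicate 1, FAM126A was at 0.019 (FDR 0.93, edgeR). The number of higher genes in this list was 7 without CD replicate 3 and 3 with any other single library left out.

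Phosphatidylserine is the cargo that ORP5 and ORP8 carry out of the ER. It is made by PTDSS1 and PTDSS2, and both fell, beside 22.9% lower over all genes tested. PTDSS1 was at 301, 288 and 314 CPM in control and at 182, 198 and 192 CPM in CD (log2 change -0.66 ± 0.10 SE, FDR 5.81e-04, edgeR). PTDSS2 was at 91.4, 90.0 and 107 CPM in control and at 55.8, 63.1 and 62.6 CPM in CD (log2 change -0.67 ± 0.12 SE, FDR 0.00136, edgeR). The 2 changes were nearly equal, and no library crossed between groups. PISD, which turns phosphatidylserine into phosphatidylethanolamine in mitochondria, had a log2 fold change of 0.03 (95% interval -0.24 to 0.30, FDR 0.86, edgeR).

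Of 7 tested genes listed as sterol transfer proteins of other families or their relatives, 6 were higher and none was lower (median 0.56). Over all genes tested, 24.8% were higher. With each library left out, 4 to 7 genes of this list were higher. Every tested gene of the list had a positive log2 fold change, so a looser threshold could not have given a lower gene. The lower count was also 0 by DESeq2 and by limma-voom. STARD4, a soluble sterol carrier, rose from 1.47 ± 0.302 to 4.47 ± 1.32 CPM (SD, n = 3 in both groups), a log2 change of 1.59 (FDR 0.00120, edgeR). STARD5 rose 4.73-fold (FDR 2.45e-06, edgeR), more than any oxysterol-binding protein gene. SCP2, the smallest called rise in this list, had a log2 fold change of 0.47 (FDR 0.0257, edgeR) and was not called in 5 of 14 alternative settings. Of 20 tested transfer proteins for other lipids, 6 were higher, near the 24.8% over all genes tested, and none was lower (median 0.26), with 0 lower also at an unadjusted p under 0.05, by DESeq2 and by limma-voom. These counts were not stable, since 11 were higher without CD replicate 3 and 3 were lower without CD replicate 1. The highest was STARD10, a phospholipid carrier, at 5.79-fold (FDR 3.72e-06, edgeR). PITPNM1, a phosphatidylinositol transfer protein, rose 1.34-fold (FDR 0.0110, edgeR), a call lost without control replicate 2 or CD replicate 2 (FDR 0.0593 and 0.0721, edgeR).

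**Figure D5:**
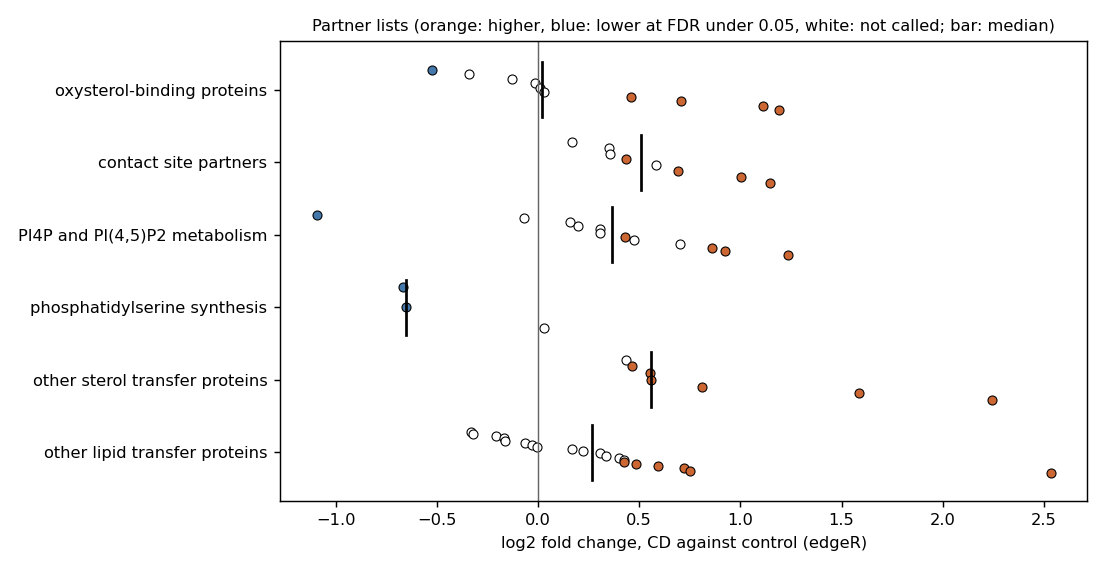
Log2 fold change in CD against control (x axis, edgeR) of each tested gene in the family and in 5 lists of related genes. Orange and blue points are higher and lower at an FDR under 0.05, white points are not called, and the bar is the median of the list. The median is 0.02 for the oxysterol-binding proteins and lies between -0.66 and 0.56 for the lists.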

How the data were processed

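RNA was sequenced from 6 libraries, 3 control and 3 CD, grouped by the labels. The authors deposited raw read counts per gene. Per the submitters' processing notes and the study's methods, reads were filtered with fastp 0.20.1 and aligned to mink assembly NNQGG.v01 with STAR 2.7.2a. The counting program and its strand setting are not given in the sources used here, so antisense reads could not be told apart. The 4 totals that name no gene (29.3% to 47.2% of a library) were left out. Deposited normalized values were not used, because their identifiers follow another order than the counts (Spearman correlation by identifier between -0.0067 and 3.43e-05, by row order 1).

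Genes were kept by filterByExpr (minimum count 10, minimum total 15), scaled by TMM and compared with the robust quasi-likelihood test of edgeR 4.0.16 in R 4.3.3, tested on simulated data. Standard errors are the log2 fold change over the root of F. Alternatives were DESeq2 1.42.0, limma-voom (limma 3.58.1), other scalings and filters, a replicate block and omission of each library. Counting floors cover counting error only. Members and lists were chosen with earlier results of these data known. Named genes were all members, OSBPL7, OSBP2, SACM1L, PI4KA, VAPA, VAPB, PTDSS1, PTDSS2, STARD4 and the called genes with the highest and lowest change in each list. Neighboring genes were read from RefSeq assembly ASM_NN_V1 by gene order. A gene of the treatment check is not reported here.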

Additional observations from a re-analysis of the deposited data

How the results depend on the processing

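The number of members called higher was 4 under every alternative tried. The number called lower was 1, but 0 at an FDR of 0.01 and 0 to 1 with each library left out (0 without control replicate 3). Among genes of PI4P metabolism, 3 to 7 were higher with each library left out, and the count of lower genes was 0 with a minimum of 50 counts. Among other lipid transfer proteins, 4 to 11 were higher and 0 to 3 lower with each library left out. On the same omissions, 3 to 6 genes of the contact site list and 4 to 7 of the sterol transfer list were higher. Fewer libraries or genes entered these fits, and the cause was otherwise not tested.

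Single-gene changes of sign were seen only for genes not called with all libraries. The members' median ranged from -0.12 (without CD replicate 1) to 0.16 (without CD replicate 3), and the difference in the OSBPL5 to OSBPL8 ratio from -0.066 to 0.42 with each library left out. The log2 fold change of OSBP was -0.021 with DESeq2, -0.049 with limma-voom, -0.017 with DESeq2 size factors and -0.20 to 0.22 with each library left out. OSBPL1A was at 0.017 with upper quartile scaling and -0.080 to 0.063 with each library left out. On the same omissions OSBPL6 ranged from -0.29 to 0.0085, OSBPL11 from -0.17 to 0.10, PI4KA from -0.20 to 0.10, EFR3A from -0.064 to 0.49, FAM126B from -0.21 to 0.42 and PISD from -0.053 to 0.12.

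Same-numbered libraries of the 2 groups did not deviate together (correlations -0.018, -0.44 and -0.21), and the other pairs ranged from -0.029 to 0.34. Each deviation was taken from a mean of 3 libraries. These values therefore cannot show whether same-numbered libraries shared a culture or a batch. With a replicate block OSBP was at -0.051, 4 members were higher and 1 lower, and 2772 genes were higher and 2636 lower in all, against 3016 and 2784 without it. Few reads (205 in control for OSBPL5, 375 in CD for OSBPL3) and the spread of the CD libraries limit the precision.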

Other observations

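The genes next to the family members were examined after the values were seen. In the gene order of the RefSeq assembly ASM_NN_V1, 9 of the 10 members were matched (OSBP was not), and the nearest tested protein-coding gene on each side was taken. Of these 18 neighbors, 6 passed the edgeR threshold, beside 47.7% of all genes tested. OSBPL5 lies between CARS1, a cysteinyl-tRNA synthetase gene with a log2 fold change of -0.40 (FDR 0.0115, edgeR), and DHCR7, which encodes the last enzyme of cholesterol synthesis, at 0.52 (FDR 0.0120, edgeR). ADRM1 beside OSBPL2 was at -0.46 (FDR 0.0171, edgeR), opposite in sign to OSBPL2. Neither neighbor of OSBPL8, OSBPL9 or OSBPL10 was called.

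The annotated spans of OSBPL1A, OSBPL6, OSBPL8 and OSBPL9 each overlap between 1 and 3 pseudogenes or small nuclear RNA genes in that assembly. The part of such reads in the counts was not tested.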
